A study of Mus musculus with 56 samples.

Results

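The later fed hours of the light phase were examined in visceral adipose tissue (VAT) of mice whose food was available by day only. The libraries of daytime-restricted feeding (DRF) at ZT12 were compared with those at ZT4, 8 of the 56 libraries of the series, and the 4 DRF libraries at ZT8 were used for order only. ZT is zeitgeber time, in hours after lights on. All 56 libraries came from female C57BL/6J mice aged 9 weeks on normal chow under a cycle of 12 h light and 12 h dark, after 7 days of either DRF or nighttime-restricted feeding (NRF), with 4 mice per time point at 7 time points. The DRF mice had food from ZT0 and the NRF mice from ZT12, so the DRF interval ran from hour 4 to hour 12 of food access. 2 NRF intervals of equal length were set beside it. NRF ZT16 to ZT24 covers the same hours of food access, and NRF ZT4 to ZT12 the same hours of the light phase, when these mice had no food. Each library is polyA RNA of 1 mouse, the labels give no litter or harvest batch, and each time point is a different set of mice.

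Fat tissue handles a meal in stages. Insulin drives glucose and fatty acid uptake, fatty acids are activated to acyl-CoA and esterified to triglyceride, and the lipid droplet proteins and lipases decide how much is stored or released. The same cells hold a circadian clock, in which BMAL1 (encoded by Arntl) and its partners CLOCK or NPAS2 drive the Per, Cry and Nr1d genes, whose products feed back on them. Glucocorticoid hormone, which peaks before the active phase, acts on fat through its receptor and on Per1 as well. In bulk tissue, fewer cells of a type and less RNA per cell cannot be told apart.

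Levels are given as CPM, counts of reads on genes scaled to a common library size, which were recovered from the deposited values. Differences are on the log2(CPM + 1) scale with the standard error (SE) of limma, and p-values were adjusted by Benjamini-Hochberg over all genes tested. A gene was called at an adjusted p under 0.05. Recovered reads ran from 33732975 to 39042489 per library at ZT4 and ZT12, with 21913 to 24110 genes detected in each library of the series. The mitochondrial share of reads was 4.86% to 5.84% at ZT4 and 5.68% to 6.53% at ZT12, and its part in the results was not tested. The adipocyte markers were the most abundant of the 14 marker lists, with a summed level of 29200 to 32900 CPM at ZT4 and 20000 to 25300 CPM at ZT12. Their summed levels did not overlap, and 7 of the 8 markers lay below 0 in the difference, and Cidec and Plin1 were called. The count of called adipocyte markers was 4 with limma-voom on the recovered reads or with no intensity trend, and 1 to 3 in the other fits. The part of this shift in the results below was not tested. The library DRF ZT8 replicate 1 stood apart, with an adipocyte sum of 11300 CPM, a sum of 360 CPM for the uterus and oviduct list, where the median at ZT8 was 9.09 CPM, and 1520 CPM for smooth muscle. It enters neither the test of ZT12 against ZT4 nor those against NRF, and is part of the alternative fits over all DRF libraries or all libraries of the series.

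Between ZT4 and ZT12, 1131 of 15650 genes rose and 1004 fell. These are 7.23% and 6.42% of the genes tested, and the lists below are read against these shares. The median rise was 0.47 and the median fall was -0.43, and 31 rises and 60 falls reached 1 on the log2 scale. The 4 values at ZT4 and the 4 at ZT12 did not overlap for 1029 of the rises and 919 of the falls, against 3267 of all genes tested. The counts moved with single libraries. Without DRF ZT4 replicate 3, 410 genes rose and 398 fell, and without replicate 4 of that group 491 and 484. Without DRF ZT12 replicate 2 the counts were 616 and 616, without its replicate 3 they were 670 and 645, and without its replicate 4 they were 1335 and 1446. Without DRF ZT4 replicate 2, 694 genes rose.

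The calls also moved with the fit. Followed here were 109 genes, those named by rule and Ciart, of which Nr1d1, Lipe, Fasn, Lep and Adipoq had no call to lose. With all 28 DRF libraries in the fit, 405 genes rose and 394 fell, and 52 of the 109 lost the call. With all 56 libraries 42 of them lost it, on the deposited values as they stand 38, with no filter on low values 30 and under quantile normalization 19, without a change of sign in any. All genes said below to lose a call without a single library lost it in at least 2 of the other fits too, and the largest adjusted p is given for many of them. For many of the lists below, the lowest counts over these other fits or with single libraries left out are given. The autophagy list, without such counts below, had as few as 1 fall in other fits. In the thermogenic list the falls and the rises each went down to 1. The cholesterol list had as few as 1 fall and 0 rises. Counts alone do not say that the same genes were called.

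The deepest fall was that of Pmepa1 (ENSMUSG00000038400, chromosome 2, 173224458 to 173276533 in GRCm38), a TGF beta target that limits SMAD signalling. It stood at 318, 406, 442 and 424 CPM at ZT4 and at 81.8, 97, 54.7 and 49.3 CPM at ZT12. The groups lay far apart, and the difference was -2.52 ± 0.20 (SE, n = 4 and 4, adjusted p = 0.00014). ZT8 was in between, at 83.7 to 208 CPM. Groups that do not overlap were a condition for this and the other largest falls and rises. Acsl1 (ENSMUSG00000018796, chromosome 8, 46471037 to 46536051), which activates long-chain fatty acids and is among the abundant transcripts of fat, went from 3834, 3505, 4497 and 3917 CPM to 1627, 1062, 1239 and 1091 CPM. Each ZT12 mouse held less than the lowest ZT4 mouse, and the difference was -1.67 ± 0.17 (adjusted p = 0.00045). Acot4, a peroxisomal acyl-CoA thioesterase, fell from 56.2, 41.5, 69.2 and 58.8 CPM to 15.4, 7.99, 13.1 and 14.2 CPM, by 2.08 ± 0.19 (adjusted p = 0.0003). Its neighbour Acot1, a cytosolic thioesterase, fell by 1.52 ± 0.27 from a low level of 6.52 ± 2.27 CPM (SD), with an adjusted p of 0.0572 with all DRF libraries. The Acot genes are near copies, and their reads may be shared.

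Pck1 (ENSMUSG00000027513, chromosome 2, 173153048 to 173159273), the enzyme of glyceroneogenesis in fat and a gene that insulin represses, had the largest SE of the 10 largest falls. The ZT4 mice held 371, 567, 421 and 509 CPM and the ZT12 mice 42.3, 329, 121 and 91.1 CPM. The groups did not overlap, although replicate 2 at ZT12 stayed close to the ZT4 range. The difference was -2.04 ± 0.47 (adjusted p = 0.019), and without DRF ZT4 replicates 3 or 4 in turn the call was lost, with an adjusted p of up to 0.0558, as it was on the deposited values (0.0669). Rasd1, a small GTPase named for its induction by dexamethasone, went from 175, 183, 161 and 104 CPM to 31, 57.5, 20.2 and 43.5 CPM, a fall of 2.07 ± 0.28 (adjusted p = 0.0019). The other genes among the 10 largest falls were Fam20c, a secretory pathway kinase (-1.81 ± 0.31), Tmem120a (-1.61 ± 0.14), Smtnl2 (-1.55 ± 0.10) and Rilpl2 (-1.49 ± 0.09). At ZT8, Smtnl2 stood at 13.8 to 28.4 CPM and Rilpl2 at 27.5 to 45.8 CPM, already apart from their ZT4 values.

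Zbtb16 (ENSMUSG00000066687, chromosome 9, 48654297 to 48836222), a zinc finger repressor and glucocorticoid target, had the largest rise. It stood at 11.7, 16.2, 14.7 and 16 CPM at ZT4 and at 60.3, 94.1, 32.8 and 50.2 CPM at ZT12, with no overlap and a difference of 1.86 ± 0.25 (adjusted p = 0.0019). Cdkn1a, the cell cycle inhibitor p21, went from 27.2, 38.7, 29 and 42.4 CPM to 82.3, 98.8, 84.2 and 143 CPM (1.53 ± 0.18, adjusted p = 0.0013). In each mouse of ZT12 its level was above the highest of ZT4. Cys1, the ciliary protein cystin, went from a range of 4.31 to 6.06 CPM to one of 13.4 to 15.9 CPM with little spread (1.39 ± 0.11, adjusted p = 0.00014). Mthfd1l, of mitochondrial folate metabolism, rose by 1.35 ± 0.15, Ifi205 by 1.33 ± 0.18 and Trp63, the p53 relative p63, by 1.33 ± 0.21. The remaining 4 of the 10 largest rises were Per3, Per1, Nr1d2 and Fkbp5, and these belong to the clock and glucocorticoid lists below.

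**Figure D1:**
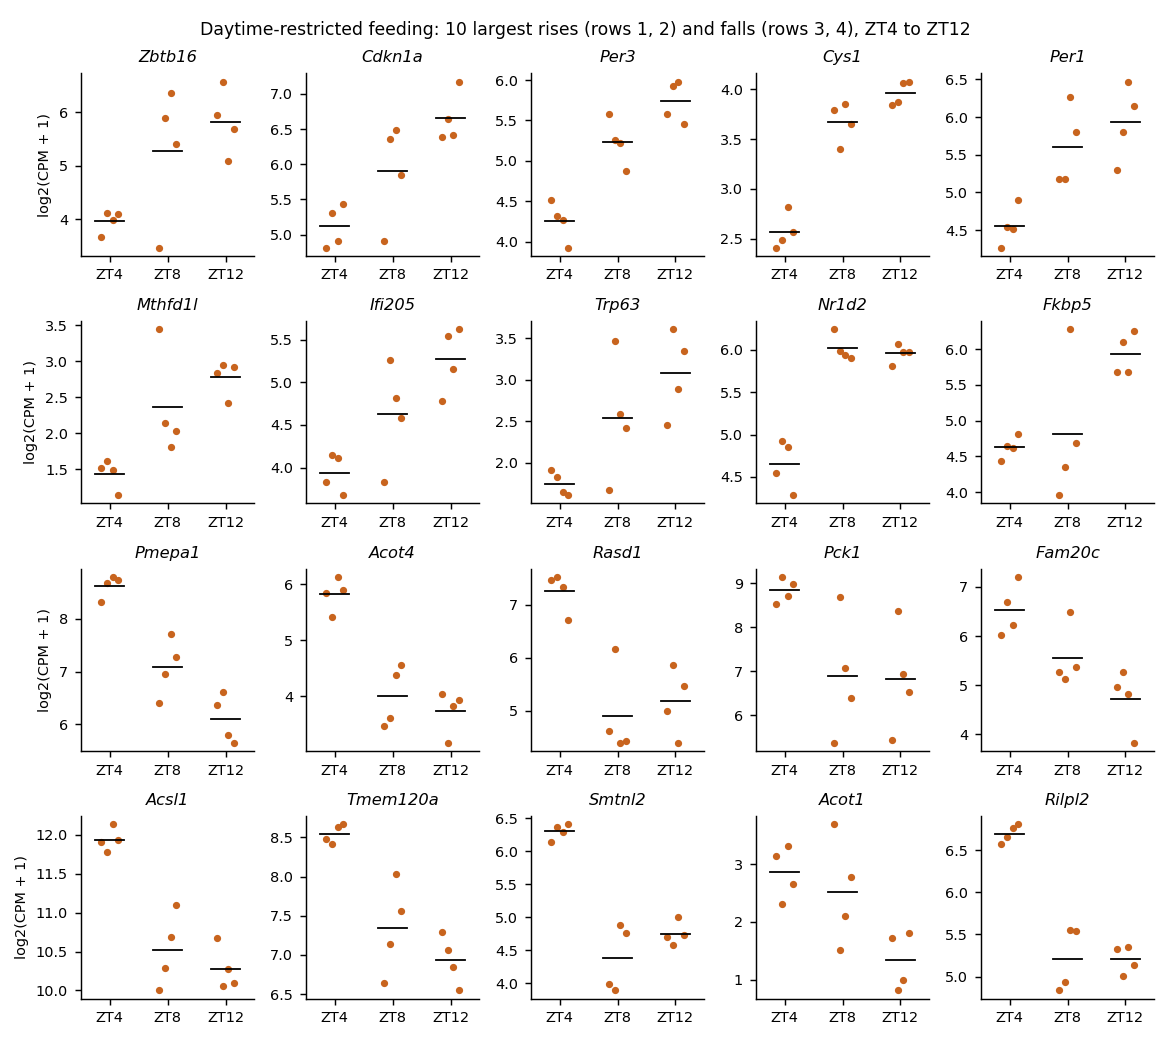
Level of the 10 largest rises (upper 2 rows) and 10 largest falls (lower 2 rows) at ZT4, ZT8 and ZT12 under DRF, in log2(CPM + 1) on a scale of its own for each gene. Each point is 1 mouse (n = 4 per time point) and each line the mean. By the rule that chose these 20 genes, no ZT12 point lies within the ZT4 range. The ZT8 points spread widely for Pck1, Zbtb16 and Fkbp5.

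At ZT8 most of the change had taken place. The place of the ZT8 mean on the way from ZT4 to ZT12 had a median of 0.864 over the 2135 called genes, and 82.0% were at or past the midpoint. The falls were ahead of the rises, with a median place of 0.964 against 0.785. Part of this came with 1 library. Without DRF ZT8 replicate 1, the medians were 0.776 for falls and 0.612 for rises, and 69.5% of the called genes were at or past it. The order of falls and rises held with each of the 4 ZT8 libraries left out. ZT8 lay beyond the ZT12 mean for 751 genes with all 4 libraries, 449 without replicate 1, 713 without replicate 2, 1067 without replicate 3 and 952 without replicate 4. The median place of the falls was 1.12 without replicate 3 and 1.06 without replicate 4. This place uses the same ZT4 and ZT12 libraries as the calls and was not tested.

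**Figure D2:**
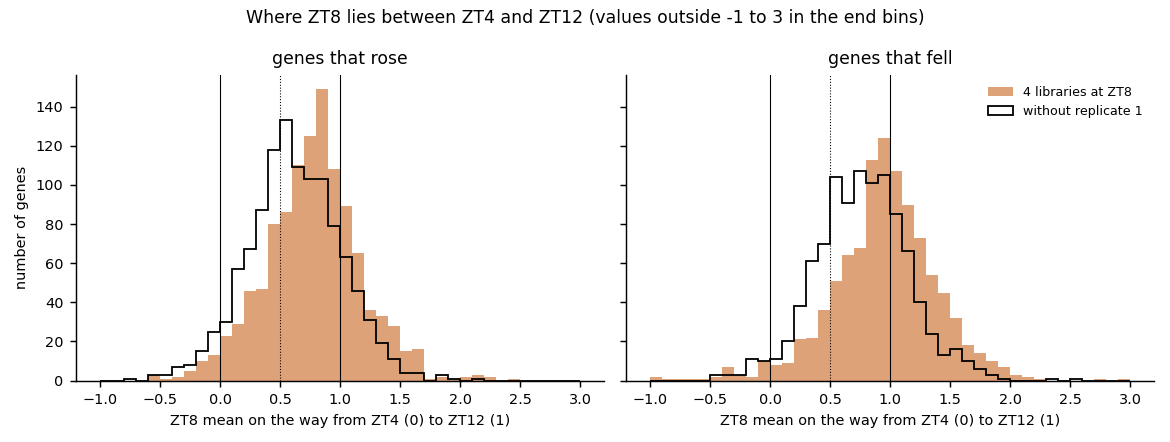
Number of called genes by the place of the ZT8 mean between ZT4 (0) and ZT12 (1), for the 1131 rises (left) and the 1004 falls (right). Filled bars use all 4 ZT8 libraries and the line leaves out replicate 1. Of the rises 578 lie from 0.5 to 1 and 294 above 1, and of the falls 421 and 457, while the line sits to the left of the bars.

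Among the genes of lipid storage, falls outnumbered rises. Of the 14 triglyceride synthesis genes tested, 6 fell and 1 rose, with a median difference of -0.43, where the median over all genes was -0.0086. Gpat3, which adds the first fatty acid to glycerol phosphate, was at 134, 143, 145 and 138 CPM at ZT4 and at 47.1, 60.1, 65.2 and 58.7 CPM at ZT12. The 4 ZT4 values were close together and all ZT12 values were lower, with a difference of -1.27 ± 0.09 (adjusted p = 9.9e-05). Its relative Gpat4 fell by 0.50 ± 0.08, and Lpin1, the phosphatidate phosphatase, by 0.70 ± 0.14. Dgat1 (ENSMUSG00000022555, chromosome 15, 76502015 to 76511953), which makes the final ester bond, stood at 441, 376, 485 and 428 CPM and then at 291, 189, 208 and 242 CPM. The ranges did not meet, and the fall was 0.91 ± 0.13 (adjusted p = 0.0028). The list counted 4 to 6 falls with single libraries left out and as few as 3 in other fits, where Lpin1 lost its call (adjusted p up to 0.106).

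Of 18 lipolysis and lipid droplet genes, 6 fell and 1 rose (median -0.31). Cidec, which fuses lipid droplets, went from 2877, 2769, 3239 and 3489 CPM to 1561, 1495, 1611 and 1368 CPM. It was lower in every mouse of ZT12, at -1.03 ± 0.14 (adjusted p = 0.0019). G0s2, an inhibitor of the lipase ATGL, fell by 0.76 ± 0.15, Hilpda, another inhibitor of that lipase, by 0.65 ± 0.12, and Pde3b, through which insulin restrains lipolysis, by 0.55 ± 0.10. Plin1, the perilipin coat, fell by 0.55 ± 0.13, a call that was lost without DRF ZT4 replicates 2, 3 or 4 (adjusted p up to 0.0677) and in other fits (up to 0.159). The single rise was Adrb3, the beta3 adrenergic receptor, at 166, 164, 157 and 166 CPM and then 179, 275, 259 and 252 CPM (0.54 ± 0.12, adjusted p = 0.016, 0.0546 without DRF ZT4 replicate 3 and up to 0.269 in other fits). Lipe, the hormone-sensitive lipase, had a difference of -0.29 ± 0.11 with overlapping groups and was not called (adjusted p = 0.1). In other fits this list had as few as 2 falls, and G0s2 and Pde3b lost their calls (adjusted p up to 0.0667 and 0.0704). Both lists are abundant in adipocytes, whose marker sum was lower at ZT12 as given above.

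In fatty acid synthesis the called genes rose. Of 17 genes, 3 rose, none fell, and the median was -0.14. Mlxipl, encoding the glucose sensor ChREBP, rose from 170, 158, 159 and 142 CPM to 395, 186, 284 and 310 CPM (0.85 ± 0.18, adjusted p = 0.014). Pnpla3, a target of ChREBP and SREBP1c, rose by 0.49 ± 0.12 (adjusted p = 0.024) and Scd2, a desaturase, by 0.65 ± 0.18 (adjusted p = 0.037). Both lost the call without certain single libraries, Pnpla3 in 4 and Scd2 in 7 of the 8 cases. Mlxipl held its call without any single library, but none of the 3 was called with all DRF libraries, all libraries, the deposited values or no filter, where the adjusted p reached 0.172 for Mlxipl, 0.381 for Pnpla3 and 0.47 for Scd2. Fasn, the fatty acid synthase, ranged from 27750 to 38110 CPM at ZT4 and from 20860 to 33660 CPM at ZT12, overlapping, with a difference of -0.27 ± 0.51. This SE draws on genes of like abundance and not on the Fasn values alone. No alternative fit called Fasn (adjusted p down to 0.254).

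Fatty acid oxidation genes fell in 7 of 21 cases and rose in 1 (median -0.30). Acot2, a mitochondrial thioesterase, fell by 1.06 ± 0.14 (adjusted p = 0.0019) and Ucp3, a mitochondrial carrier, by 0.82 ± 0.16. The rise was Ppara, the receptor that drives this programme in liver, which went from 3.51 to 4.11 CPM up to 5.2 to 6.38 CPM (0.52 ± 0.10, adjusted p = 0.0077). The falls of this list ranged from 3 without DRF ZT4 replicate 4 to 13 without DRF ZT12 replicate 4, and only 1 was left with all DRF libraries, where Ucp3 and Ppara were not called (adjusted p = 0.0563 for Ucp3). Of 20 regulators and targets of PPAR gamma, the master factor of fat cells, 7 fell and 1 rose. Slc27a1, a fatty acid transporter, fell from 1348, 1320, 1591 and 1396 CPM to 721, 447, 528 and 736 CPM (-1.24 ± 0.16, adjusted p = 0.0018). Cebpa, the factor that works beside PPAR gamma, fell by 0.54 ± 0.12 and Nr1h3, the oxysterol receptor LXR alpha, by 0.29 ± 0.07, the latter not called in 4 of the 8 leave-one-out fits (adjusted p up to 0.0857) nor in 3 other fits (up to 0.381). Cebpa was not called with all DRF libraries, all libraries or quantile normalization (adjusted p up to 0.205), and each of these left 2 falls in the list.

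In the cholesterol synthesis list 2 of 25 genes fell and 2 rose, which is close to the shares of all genes. Hmgcs1 (ENSMUSG00000093930, chromosome 13, 119690379 to 119708260), which makes HMG-CoA, stood out with 359, 446, 438 and 467 CPM and then 231, 208, 188 and 184 CPM. It was lower in all 4 mice of ZT12, by 1.07 ± 0.10 (adjusted p = 0.00035). Fdft1, squalene synthase, fell by 0.51 ± 0.14 and lost the call in 5 of the 8 leave-one-out fits and in other fits (adjusted p up to 0.133). Fdft1 overlaps Ctsb, a far more abundant gene. Fdps rose by 0.77 ± 0.15, but at 1.44 to 5.18 CPM its reads are few, and reads that fit processed copies of this gene elsewhere in the genome may be missing from it.

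**Figure D3:**
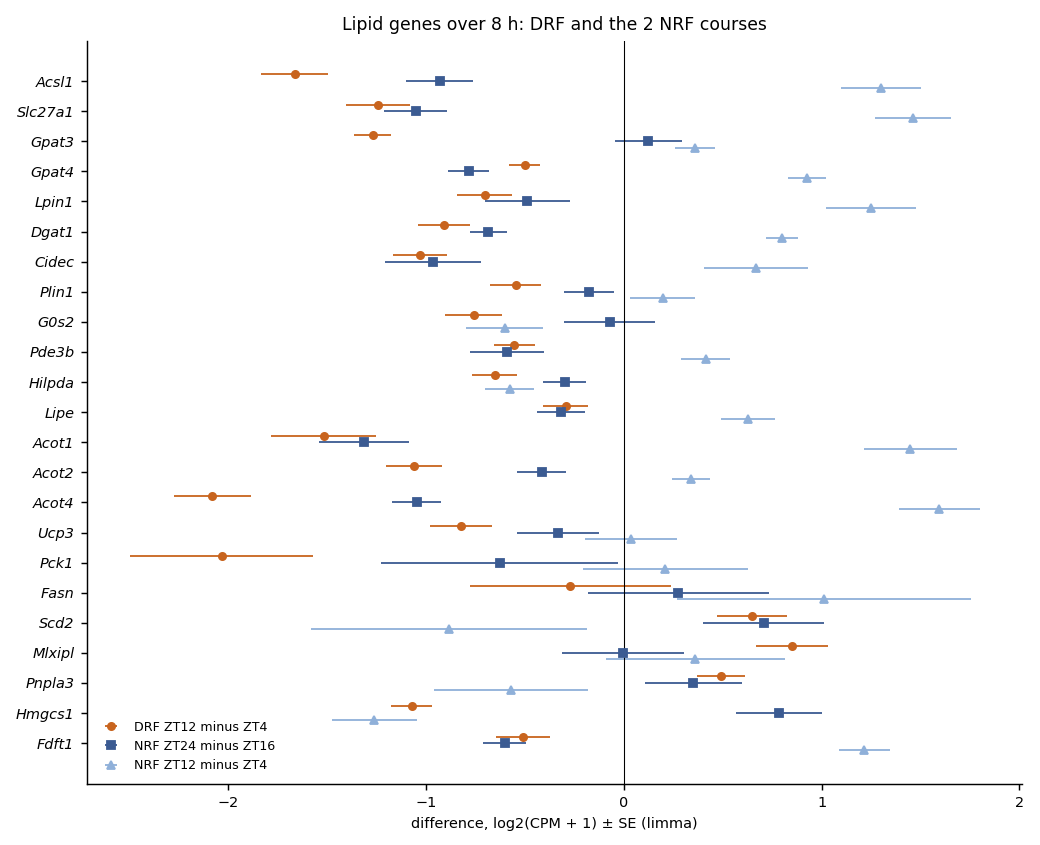
Difference over 8 h in log2(CPM + 1) with its SE for 23 lipid genes, under DRF from ZT4 to ZT12 (circles), under NRF from ZT16 to ZT24 (squares) and under NRF from ZT4 to ZT12 (triangles), each from 4 and 4 mice. For Acsl1, Slc27a1, Dgat1 and Cidec, circles and squares lie below 0 and triangles above 0, while for Gpat3 the circle alone lies below 0.

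The fasting list, of genes that rise without food or that insulin suppresses, had 8 falls and 2 rises among 20 (median -0.24). Besides Pck1, Gadd45a fell by 1.00 ± 0.15, Insr, the insulin receptor, by 0.51 ± 0.06 and Trib3, a pseudokinase that binds AKT, by 0.55 ± 0.09. Fgf21, a hormone of fasting in liver and of feeding in fat, was at 5.36, 4.43, 5.21 and 3.55 CPM and then at 2.63, 0.898, 1.13 and 1.25 CPM (-1.22 ± 0.19, adjusted p = 0.0043). All 4 ZT12 mice lay under the ZT4 range. The falls numbered 6 to 8 without any 1 library and 4 with all DRF libraries, where Gadd45a and Trib3 lost their calls (adjusted p = 0.0762 and 0.161). In the glucose list 4 of 24 genes fell and 1 rose. Pfkfb3, the enzyme that makes the activator of glycolysis, went from 632, 865, 579 and 675 CPM to 183, 429, 314 and 190 CPM. The groups did not overlap, and the fall of 1.38 ± 0.25 (adjusted p = 0.0073) was the largest among the called genes of this list. Pfkp (-0.40 ± 0.09), Gys1, the glycogen synthase of muscle and fat (-0.34 ± 0.08), and Ppp1r3c, which brings a phosphatase to glycogen (-0.39 ± 0.11), fell by less, and each lost its call without at least 1 library (adjusted p up to 0.0527, 0.0809 and 0.107). In several other fits 1 of the 4 falls was left, and these adjusted p-values reached 0.164, 0.259 and 0.554. Of 10 pentose phosphate and NADPH genes only Rpia was called (-0.75 ± 0.16).

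The clock list moved in both directions, with 7 rises and 5 falls among 22 genes. Promoters of 3 of its members are shown, as genes that rose together and hold the letters that clock factors bind: Per1 and Ciart with E-boxes and Per3 with D-boxes. An E-box is the site of BMAL1 with CLOCK or NPAS2, and a D-box that of DBP, TEF and NFIL3. The search was for CACGTG (E-box, its own reverse complement) and for TTATGTAA, TTACATAA or TTACGTAA (D-box, both strands), from 250 bases before to 50 bases after each start in RefSeq on GRCm38.p6. Only the 250 bases before the start are printed, in the direction of the gene, with matches in capitals. Hmgcs1 is added with its match to TCACNCCAC or its reverse complement, letters of the sterol element. The windows are chr11:69098699-69098948 (Per1, plus strand), chr4:151044666-151044915 (Per3, minus strand), chr3:95882229-95882478 (Ciart, minus strand) and chr13:119690101-119690350 (Hmgcs1, plus strand).
Per1: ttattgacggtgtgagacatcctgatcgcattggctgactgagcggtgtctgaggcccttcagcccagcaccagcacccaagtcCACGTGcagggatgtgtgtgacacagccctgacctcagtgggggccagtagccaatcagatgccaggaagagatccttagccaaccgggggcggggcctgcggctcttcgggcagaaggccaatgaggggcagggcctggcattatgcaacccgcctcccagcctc
Per3: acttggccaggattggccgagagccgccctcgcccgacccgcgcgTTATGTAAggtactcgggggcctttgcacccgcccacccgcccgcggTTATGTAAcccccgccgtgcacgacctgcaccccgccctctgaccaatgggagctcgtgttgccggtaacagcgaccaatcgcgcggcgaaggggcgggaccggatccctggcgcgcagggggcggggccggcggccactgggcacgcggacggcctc
Ciart: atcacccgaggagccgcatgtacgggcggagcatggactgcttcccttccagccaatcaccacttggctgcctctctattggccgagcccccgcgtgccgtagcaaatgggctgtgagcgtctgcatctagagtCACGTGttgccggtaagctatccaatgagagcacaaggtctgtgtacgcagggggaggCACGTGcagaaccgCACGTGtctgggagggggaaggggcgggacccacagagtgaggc
Hmgcs1: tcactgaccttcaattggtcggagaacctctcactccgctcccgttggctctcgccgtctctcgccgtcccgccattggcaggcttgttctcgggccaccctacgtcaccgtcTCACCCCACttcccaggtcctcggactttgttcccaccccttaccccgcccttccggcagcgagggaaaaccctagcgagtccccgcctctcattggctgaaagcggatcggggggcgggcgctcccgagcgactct
Per1 has a second start in RefSeq, whose window, chr11:69099902-69100151, holds neither motif. The E-box of Per1 begins 166 bases before the start shown, those of Ciart 116, 58 and 44 bases before it, and the D-boxes of Per3 205 and 158 bases before it. The windows of Nr1d2 and Dbp hold neither motif. Among the 11275 tested genes with a window, 11.4% hold an E-box, 0.905% a D-box and 1.44% the sterol letters. The shares were 10.6%, 0.972% and 1.7% among the rises and 14.9%, 1.2% and 1.87% among the falls. A match is a description of letters and no evidence of binding.

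Per3 stood at 21.9, 19, 18.3 and 14.2 CPM at ZT4 and at 46.8, 59.9, 62.2 and 42.8 CPM at ZT12, with ZT8 in between at 28.3 to 46.8 CPM. The rise was 1.48 ± 0.14 (adjusted p = 0.00037). Per1 went from 18.3, 22.4, 21.9 and 28.8 CPM to 38.5, 54.7, 87.8 and 69.9 CPM (1.37 ± 0.22, adjusted p = 0.0042). Per2, the third period gene, was flat from ZT4 (17.7 to 28.5 CPM) to ZT8 (15.7 to 28.7 CPM) and higher at ZT12 (37.6 to 49.7 CPM, a difference of 0.89 ± 0.14, adjusted p = 0.0043). The repressor Nr1d2 (REV-ERB beta) was already at its ZT12 level at ZT8, with 18.5 to 29.3 CPM, then 58.9 to 74.8 CPM, then 55 to 66 CPM (1.31 ± 0.13, adjusted p = 0.00039). Dbp, an output factor of the clock, rose by 0.90 ± 0.19 and Ciart, a clock repressor chosen here for its promoter after its values were seen, by 0.87 ± 0.16. Nr1d1 (REV-ERB alpha) overlapped between the groups, with 36.7 to 68.4 CPM and 43.7 to 55.6 CPM (0.17 ± 0.17, adjusted p = 0.51). It shares its locus with Thra on the other strand, and the kit does not mark strand.

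Arntl, on the positive arm, went the other way, from 31.7, 30.8, 28.1 and 35.5 CPM through 15.1 to 23 CPM at ZT8 to 16.1, 11.3, 17.6 and 14.8 CPM. ZT12 was lower in every mouse, by 1.04 ± 0.12 (adjusted p = 0.0012). Npas2 fell by 0.59 ± 0.14 (adjusted p = 0.025) and was not called without DRF ZT4 replicates 1 or 4 or DRF ZT12 replicate 3 (adjusted p up to 0.0629) or with all DRF libraries (0.235). With single libraries left out the list counted 6 to 8 rises and 2 to 5 falls, and in other fits 5 to 8 and 2 to 5. Dbp lost its call on the deposited values and with no filter (adjusted p up to 0.0592), and Per2 with all libraries of the series (0.0578).

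**Figure D4:**
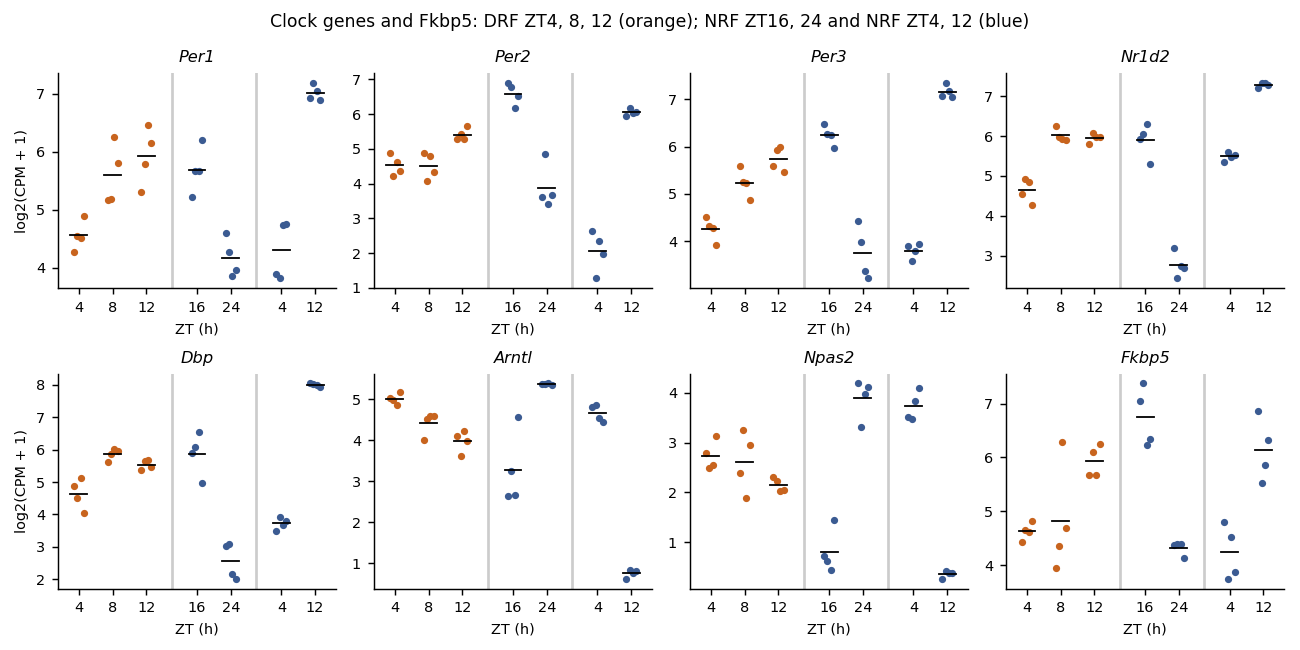
Levels of 7 clock genes and Fkbp5 in log2(CPM + 1), 1 point per mouse (n = 4) with the mean as a line, on a scale of its own for each gene. Orange points are DRF at ZT4, ZT8 and ZT12, and blue points NRF at ZT16 and ZT24 (middle) and at ZT4 and ZT12 (right). For the Per genes, Nr1d2 and Dbp, the DRF mean is higher at ZT12 than at ZT4, while the middle means fall and the right means rise. The DRF mean of Dbp is highest at ZT8.

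Of 16 glucocorticoid response genes, 6 rose and 2 fell (median 0.11), and 7 of the 16 lay below 0. Besides Zbtb16, Cdkn1a and Per1, the rises include Fkbp5 (ENSMUSG00000024222, chromosome 17, 28399094 to 28517527), a co-chaperone that damps the receptor and is a standard readout of the hormone. Fkbp5 held 20.6, 24.1, 23.6 and 27.2 CPM at ZT4 and 50.1, 67.6, 50.1 and 75.5 CPM at ZT12, a rise of 1.30 ± 0.14 (adjusted p = 0.00057). At ZT8, 3 mice were at 14.5 to 24.7 CPM and replicate 3 was at 76.6 CPM. Leaving out single libraries gave 5 to 7 rises, and all DRF libraries in the fit gave 3, with an adjusted p of 0.0544 for Fkbp5. Rasd1, outside this list and named for its induction by dexamethasone, fell, as given above. Corticosterone was not analysed here.

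Nearly all calls among genes of protein production were falls. In the ribosome biogenesis list 9 of 25 genes fell and none rose (median -0.20), with small differences and tight groups. Tsr1 was at 27.5 to 31.9 CPM and then 20.4 to 22.9 CPM (-0.45 ± 0.07, adjusted p = 0.0044), Nop2 fell by 0.42 ± 0.07, Nolc1 by 0.37 ± 0.06 and Mybbp1a by 0.26 ± 0.06. The falls numbered 3 without DRF ZT4 replicate 3 and 11 without DRF ZT12 replicate 4. With all DRF or all libraries they were 3 as well, and Tsr1, Nop2 and Nolc1 each lost the call in 1 such fit (adjusted p of 0.0703, 0.0556 and 0.0501). Of 22 genes of ER chaperones and the unfolded protein response, 6 fell and none rose (median -0.24). Hspa5, the ER chaperone BiP, stood at 550, 544, 561 and 683 CPM and then at 397, 394, 382 and 477 CPM (-0.50 ± 0.10, adjusted p = 0.013). Its groups did not overlap, while those of Dnajb9 (-0.59 ± 0.12) and Creld2 (-0.61 ± 0.17) did, because replicate 4 was the highest of the ZT12 mice for each. Syvn1, an ER ubiquitin ligase, fell by 0.31 ± 0.07. The calls of Mybbp1a (without DRF ZT4 replicate 3), Syvn1 (without DRF ZT4 replicates 2 or 4) and Creld2 (in 6 of the 8 fits) were lost, with adjusted p-values of up to 0.0715, 0.0641 and 0.0984 there and 0.125, 0.0921 and 0.0947 in other fits. The list had 2 falls without DRF ZT4 replicate 4 and 10 without DRF ZT12 replicate 4, and it had 1 on the deposited values, where the adjusted p of Dnajb9 was 0.0518.

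In the amino acid response list 6 of 24 genes fell and 1 rose. Chac1, a glutathione-degrading target of ATF4, went from 9.11, 13.4, 10.2 and 11.9 CPM to 3.32, 5.96, 3.58 and 3.53 CPM (-1.27 ± 0.17, adjusted p = 0.0018). Atf4, the factor itself, fell by 0.57 ± 0.09 and Psat1, of serine synthesis, by 0.32 ± 0.08, the latter not without 4 of the single libraries (adjusted p up to 0.206 in other fits). The 6 falls of this list became 2 with all libraries of the series. Heat shock genes fell in 4 of 19 cases. Dnajb4 fell by 0.54 ± 0.10 with groups that did not overlap, while Hspb1 (-0.57 ± 0.15), Hspe1 (-0.54 ± 0.15) and Bag3 (-0.32 ± 0.09) were called with overlapping groups and lost the call in 5 or 6 of the 8 leave-one-out fits (adjusted p up to 0.124), and several other fits left 1 fall. None of the 26 ribosomal protein genes and none of the 26 nuclear-encoded respiratory chain genes was called, although every one of them lay below 0, with medians of -0.18 and -0.34. At an unadjusted p under 0.05 in limma, 7 and 22 of them were lower, where 5133 of all 15650 genes passed in either direction. Limma-voom on the recovered reads called 0 of either list, and the replicate block called 3 respiratory chain genes lower. Under NRF ZT4 to ZT12, without food, all 26 ribosomal protein genes also lay below 0, with a median of -0.30. So did 13 of the 26 respiratory chain genes. Under NRF ZT16 to ZT24, 10 ribosomal protein and 15 respiratory chain genes lay below 0. Whether the genes of a list move together across mice was not tested. For the respiratory chain the result hung on 1 mouse, since 20 of the 26 genes were called lower without DRF ZT12 replicate 4.

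In the cell proliferation list the called genes rose. Of 22 genes, 7 were called higher and none lower, all 22 lay above 0 and the median was 0.52. The called genes belong to DNA replication and its onset. Mcm5, a subunit of the replicative helicase, was at 8.68, 8.12, 9.41 and 6.52 CPM and then at 19.4, 19.8, 10.4 and 14 CPM (0.85 ± 0.18, adjusted p = 0.016), above the ZT4 range in all 4 mice, with an adjusted p of 0.051 without DRF ZT4 replicate 4 and 0.102 with all DRF libraries. Mcm2 rose by 0.76 ± 0.17, Mcm6 by 0.68 ± 0.15 and Ccne1, the cyclin of the G1 to S step, by 0.52 ± 0.13. Ccne1 was not called in 6 of the 8 leave-one-out fits, and its adjusted p reached 0.1 over the alternative fits. With single libraries left out 3 to 6 genes rose. None was called with all DRF libraries, on the deposited values or with no filter, where the adjusted p of Mcm2 was up to 0.142 and that of Mcm6 up to 0.108. Which cells of the tissue carried these transcripts cannot be told from bulk RNA.

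The other lists had few calls. Interferon-stimulated genes rose in 2 of 22 cases, Ifit3 (0.46 ± 0.11) and Oas2 (0.66 ± 0.17), and neither was called without DRF ZT4 replicate 3 (adjusted p up to 0.233 and 0.325 in other fits). Of the 26 collagen and matrix genes, the protease Adamts1 (0.52 ± 0.09) and the inhibitor Timp3 (0.36 ± 0.09) rose, and the proteases Adamts4 (-0.75 ± 0.16) and Mmp14 (-0.62 ± 0.14) fell. In the thermogenic list of 15, Slc25a25, an ATP-Mg carrier, fell from 124 to 140 CPM to 59.8 to 68.2 CPM (-1.04 ± 0.07, adjusted p = 6.5e-05), Dio2, the deiodinase, fell by 1.01 ± 0.22, and Gk, glycerol kinase, rose by 0.71 ± 0.12. Immediate early genes fell in 3 of 21 cases, Klf4 (-0.39 ± 0.08), Ier2 (-0.37 ± 0.09) and Nr4a2 (-0.47 ± 0.12). In the autophagy list 3 of 24 fell, Tfe3, a lysosomal regulator (-0.44 ± 0.06), Bnip3 (-0.61 ± 0.15) and Sqstm1 (-0.33 ± 0.08). Without single libraries, Ier2, Nr4a2, Timp3 and Sqstm1 lost the call in 5 of the 8 fits, Bnip3 in 4, Mmp14 without DRF ZT4 replicate 3 (adjusted p = 0.0577) and Dio2 without DRF ZT4 replicate 4 (adjusted p = 0.0504). In other fits the adjusted p reached 0.505 for Dio2, 0.283 for Ier2, 0.233 for Mmp14, 0.167 for Bnip3 and 0.127 for Timp3. Over all alternative fits it reached 0.0968 for Sqstm1 and 0.0833 for Nr4a2. With all DRF libraries, no interferon-stimulated, matrix or immediate early gene was called, and Klf4, Adamts1 and Adamts4 had adjusted p-values of up to 0.164, 0.121 and 0.131 in other fits. Of 15 adipokines Nrg4 was called, at -0.61 ± 0.10 (adjusted p = 0.0968 with all DRF libraries), and the alternative fits called 0 to 3 of the list. Leptin (Lep) was at 1311 to 2154 CPM and 835 to 1637 CPM, and adiponectin (Adipoq) at 2582 to 3057 CPM and 1695 to 2235 CPM (adjusted p = 0.21 and 0.064). Adiponectin was called lower with limma-voom, with no intensity trend and with a filter at a mean of 2 (adjusted p down to 0.0229), but not without any 1 library or under quantile normalization (0.913).

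**Figure D5:**
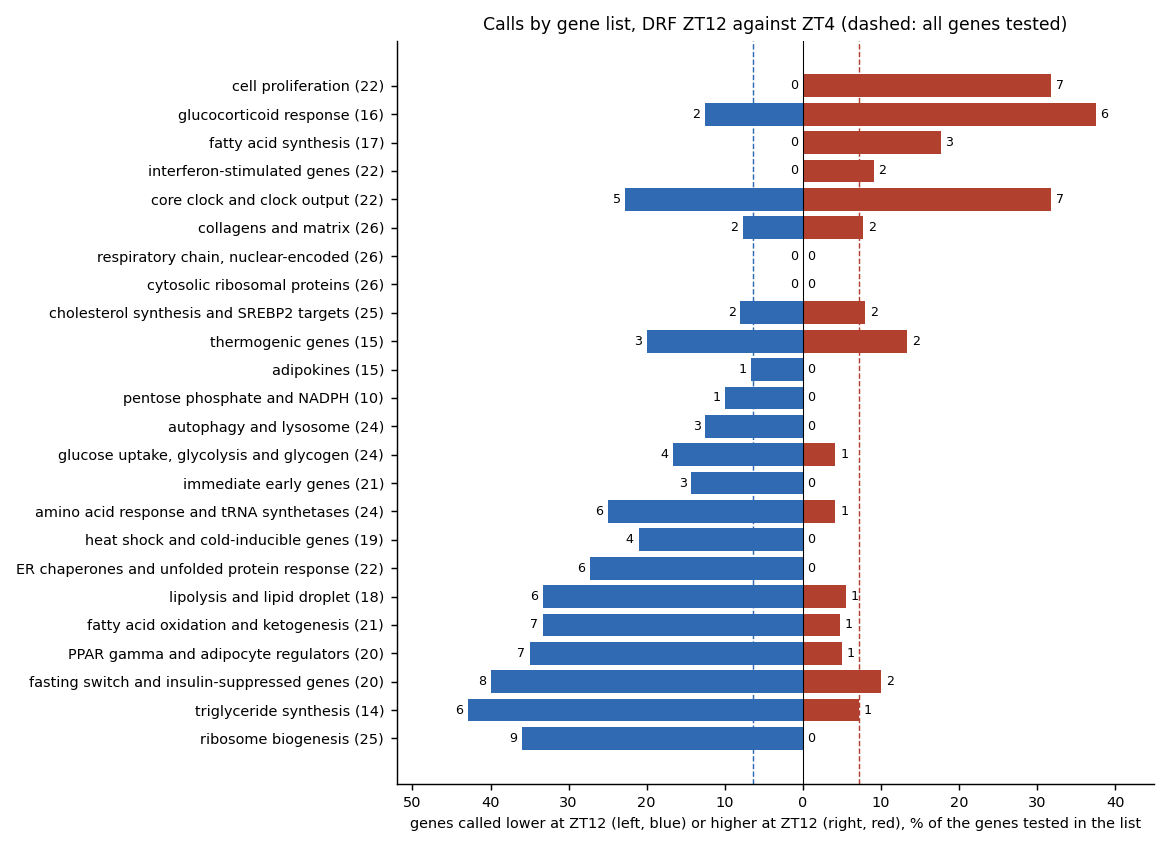
Share of the tested genes of each of the 24 functional lists called lower (blue, left) or higher (red, right) at ZT12 than at ZT4 under DRF. The number tested is in parentheses, the number called stands at each bar, and dashed lines mark the shares over all genes, 6.42% lower and 7.23% higher. Triglyceride synthesis, the fasting list and ribosome biogenesis reach furthest left, and glucocorticoid response, cell proliferation and the clock furthest right.

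Few markers of other cells were called, although several lists leaned one way. Skeletal muscle markers had a median of -0.49 with 7 of 8 below 0, and red cell and neutrophil markers one of -0.47 with 6 of 7 below 0, both lower than the adipocyte median of -0.43. Their summed levels overlapped, at 54.7 to 151 CPM and then 54.3 to 134 CPM for skeletal muscle and at 473 to 862 CPM and then 299 to 858 CPM for red cells and neutrophils. No gene was called among the markers tested in 9 of the lists, namely 8 of macrophages, 6 of B cells, 5 of T cells, 7 of red cells and neutrophils, 8 of skeletal muscle, 4 of liver, 2 of uterus and oviduct, 3 of ovary and 1 of pancreas. Of these 44 markers, 8 had an unadjusted p under 0.05 in limma, as did 5133 of all 15650 genes tested. Limma-voom called 0 of the 44. A macrophage marker rose with a filter at a mean of 2, quantile normalization or the replicate block. A B cell marker fell with no intensity trend or quantile normalization, and a uterus and oviduct marker fell with the block. The remaining markers of these lists were not tested here. Of 8 endothelial markers 3 fell, a larger share than the 6.42% of all genes, Kdr, the VEGF receptor (-0.54 ± 0.10), Cldn5, a tight junction protein (-0.73 ± 0.13), and Tek (-0.28 ± 0.08, lost in 7 of the 8 leave-one-out fits and up to 0.251 in adjusted p elsewhere), while the summed level of the list was 884 to 1160 CPM at ZT4 and 905 to 949 CPM at ZT12. The mesothelial marker Muc16 (0.70 ± 0.12) and the progenitor marker Cd34 (0.58 ± 0.10) each rose as 1 of 8. Smooth muscle markers had a median of 0.33 with 7 of 8 above 0 and rose in 2 of 8 cases, Actg2 (1.15 ± 0.30) and Cnn1 (0.87 ± 0.25), both with overlapping groups and neither called without DRF ZT4 replicate 3 or in several other fits (adjusted p up to 0.286 and 0.311). Their list summed to 349 to 531 CPM at ZT4 and 490 to 635 CPM at ZT12. With all DRF libraries Kdr, Cldn5 and Muc16 were not called (adjusted p = 0.0891, 0.124 and 0.0762). The part of these cells in the results above was not tested.

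Set against NRF over the same hours of food access, ZT16 to ZT24, the DRF change was more positive for 483 of 15850 genes (3.05%) and more negative for 341 (2.15%). This interaction is the DRF change minus the NRF change in limma over the 16 libraries. The DRF interval lies in the light and this NRF interval in the dark, so regimen, light phase and clock hour cannot be told apart. The counts were 274 and 180 without DRF ZT4 replicate 3, 290 and 196 without its replicate 4, 293 and 193 without NRF ZT16 replicate 1, 315 and 227 without its replicate 2, and 275 and 189 without NRF ZT24 replicate 3. Without NRF ZT24 replicate 1 they were 775 and 688. The library NRF ZT24 replicate 4 stood apart, with a liver marker sum of 1720 CPM where the other 3 mice held 24 to 32.9 CPM, and 480 CPM for skeletal muscle where they held 77.4 to 101 CPM. Without it the counts were 450 and 323, and 3 of the 35 named genes that differed, Fam20c, Hspa5 and Cldn5, no longer did. The genes that fell under DRF had a median of -0.14 in this NRF interval, and 73.3% of them had the same sign, against 55.0% of all genes. The genes that rose had a median of 0.04 there and the same sign in 57.8%. Without NRF ZT24 replicate 4, which was left out here after the data were seen, the shares were 73.0% and 56.0%. The summed adipocyte markers had a median of 33700 CPM at NRF ZT16 and 29400 CPM at NRF ZT24. The part of this in the shares was not tested. Of the storage genes, Acsl1 (-0.93 ± 0.17), Slc27a1 (-1.05 ± 0.16) and Dgat1 (-0.68 ± 0.09) also fell under NRF ZT16 to ZT24, and so did Gpat4 (-0.78 ± 0.10). All 4 fell without replicate 4 as well, by 0.63 to 0.92. Gpat3, the deepest fall of the triglyceride list under DRF, did not follow, at 0.12 ± 0.17 under NRF (adjusted p = 0.73). Without NRF ZT24 replicate 4 it was at 0.32 ± 0.10 (adjusted p = 0.105). With all 16 libraries its difference between the DRF and the NRF interval of -1.40 ± 0.21 was called (adjusted p = 0.0011). G0s2 was at -0.07 ± 0.23 and Plin1 at -0.18 ± 0.13 under NRF, both not called, and Cidec at -0.97 ± 0.24 (adjusted p = 0.054). Without that replicate G0s2 was at -0.01, Plin1 at -0.16 and Cidec at -0.77, none of them called. Among the 7 triglyceride and the 7 lipolysis genes called under DRF, 5 and 6 had the same sign in this interval.

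The clock genes set the DRF interval apart from this NRF interval, which differs in light phase and clock hour as well. Of the 22 clock genes 10 differed upward and 3 downward. Nr1d2 rose by 1.31 under DRF and fell by 3.14 ± 0.21 under NRF ZT16 to ZT24, from 38.7 to 77.8 CPM down to 4.38 to 8.14 CPM, a difference of 4.45 ± 0.27 (adjusted p = 1.8e-07). The differences were 4.21 ± 0.43 for Dbp, 3.96 ± 0.31 for Per3 and 3.60 ± 0.35 for Per2. Arntl fell under DRF and rose by 2.10 ± 0.35 under NRF, a difference of -3.14 ± 0.41, and Npas2 differed by -3.68 ± 0.30. Outside the clock, Fkbp5 rose under DRF and fell by 2.43 ± 0.23 under NRF, a difference of 3.73 ± 0.29. Of the 16 glucocorticoid genes, which include Per1 of the clock list, 7 differed, all upward. Rasd1 had a difference of -2.44 ± 0.49, Mmp9, a gelatinase of neutrophils and macrophages, one of -2.38 ± 0.21 and Adamts4 one of -2.30 ± 0.24. Mmp9 was at 25.5 to 31.5 CPM and then 10.2 to 13.8 CPM under DRF, and at 11.8 to 20.6 CPM and then 28.3 to 43.1 CPM under NRF.

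Set against NRF over the same hours of light, ZT4 to ZT12, more genes differed, 1077 of 15839 upward (6.8%) and 1250 downward (7.89%). Both interactions use the same DRF libraries. Without single libraries the counts ran from 737 to 1180 and from 945 to 1399. Of the DRF rises 60.3% had the same sign in this interval, and 117 were called the same way and 30 the opposite way. Only 38.1% of the DRF falls had the same sign, where all genes had 51.5%, and 164 of them were called higher there, against 78 called lower. The summed adipocyte markers had a median of 31700 CPM at NRF ZT4 and 35400 CPM at NRF ZT12, with overlapping ranges. Under DRF the medians were 31800 CPM at ZT4 and 21200 CPM at ZT12. The part of this in the signs was not tested. Pmepa1 fell by 2.52 under DRF and rose by 1.13 ± 0.19 under NRF, from 60.5 to 106 CPM up to 154 to 236 CPM (difference -3.64 ± 0.30, adjusted p = 1e-06). Acot4 differed by -3.68 ± 0.31, and 11 of the 21 fatty acid oxidation genes and 6 of the 14 triglyceride genes differed downward, none upward. Of the 16 glucocorticoid genes, 7 differed downward and 1 upward. The median of that list was 0.11 under DRF and 0.75 under NRF in these hours.

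Of the 12 clock genes called under DRF, 10 had the same sign in these hours of NRF, and of all 22 clock genes tested 14 had. The median of the list was 0.07 under DRF and 1.31 under NRF. Dbp rose by 4.28 ± 0.09 under NRF ZT4 to ZT12, from 10.2 to 14.3 CPM up to 243 to 264 CPM, and by 0.90 ± 0.19 under DRF, a difference of -3.38 ± 0.23. Arntl fell by 3.91 ± 0.12 under NRF and by 1.04 ± 0.12 under DRF (difference 2.87 ± 0.18), and Npas2 differed by 2.78 ± 0.21. In all, 19 of the 22 clock genes differed, 4 upward and 15 downward. Usp2, a ubiquitin protease under clock control, fell under DRF from 29.1 to 39.3 CPM to 17.3 to 24.3 CPM and rose under NRF (difference -3.48 ± 0.20), and Crtac1, a cartilage matrix protein, differed by -3.77 ± 0.31. In the other direction stood Cdkn1a (2.63 ± 0.31), which rose under DRF and fell by 1.10 ± 0.21 under NRF, Ehd3, of endosome recycling (1.87 ± 0.21, its own rise under DRF not called in 3 other fits), and Adra1a, the alpha1A adrenergic receptor (1.79 ± 0.43). Adra1a rose by 1.00 ± 0.22 under DRF, a call lost without DRF ZT4 replicate 3 (adjusted p = 0.0571).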

How the data were processed

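VAT RNA of 56 mice was sequenced by the authors as polyA libraries. Per the processing notes, reads were aligned with HISAT2 2.0.5 to mm10 and counted with featureCounts 1.5.0-p3. The authors deposited 1 score per gene and library under the name TPM, which by its steps is log2(CPM + 1) over exon length, rescaled in each library. Whole reads were recovered from it, and 99.9998% of 1252754 values lay within 0.02 of a whole number. Of 25939 genes, 2 without a length were left out, and Scd1 is not reported because its length was unresolved. For 879 genes the length itself came from the values. The kit marks no strand, so overlapping genes are uncertain.

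Groups came from the sample titles. ZT12 and ZT4 under DRF (4 and 4 mice) were compared on log2(CPM + 1) in limma 3.58.1 (R 4.3.3) with an intensity trend and no block, over genes with a mean of at least 0.5, at a Benjamini-Hochberg adjusted p under 0.05. The pseudocount of 1 understates the change of low genes. The SE and p-values rest on the spread between these mice, which limma draws toward that of genes of like abundance. They do not measure a gene's own spread alone. The DRF interval was compared with each NRF interval over 16 libraries, as an interaction, the DRF change minus the NRF change. For NRF ZT16 to ZT24 the light phase differs along with the regimen. Limma was tested on simulated data, where it recovered 183 of 200 genes changed by 1 in the main comparison. Most calls here were smaller, with medians of 0.47 for rises and -0.43 for falls, and this count does not cover them. The genes named are the 10 largest rises and 10 largest falls (mean of at least 2, groups not overlapping), up to 4 called genes per list, the 5 largest differences each way per interaction, and genes the study names. Ciart was added for its promoter after its values were seen. The intervals compared, the 24 functional lists and the 14 marker lists were chosen with earlier results of these data known. Where a symbol had several identifiers, the most abundant was used. The values of some genes are not reported here. Alternatives covered the pseudocount, filter, scaling, trend, voom on recovered reads, the deposited values, more libraries in the fit, a replicate block and each library left out. Other tissues were not used here.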

Additional observations from a re-analysis of the deposited data

Results flagged for a closer look

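In groups of 4, single mice stood apart from the other 3 by more of the group's range than Dixon's 95% value allows, which chance gives in about 1 of 20 groups. Whether the cases below exceed that rate was not tested. DRF ZT8 replicate 1, the library with low adipocyte and high smooth muscle sums, was low for Adipoq (1030 CPM), Arntl (15.1 CPM), Nr1d1 (46.3 CPM) and Gk (8.12 CPM) and high for Cnn1 (88 CPM). At ZT8, replicate 2 was high for Rasd1 (71.1 CPM). At ZT4, replicate 1 was high for Ciart (1.41 CPM), replicate 2 was low for Dnajb4 (73.8 CPM), Atf4 (161 CPM) and Psat1 (145 CPM), and replicate 4 was high for Gadd45a (49.6 CPM) and Hspa5 (683 CPM). At ZT12, replicate 4 was high for Dnajb4 (70.4 CPM) and Dnajb9 (61.2 CPM), replicate 2 was high for Chac1 (5.96 CPM) and low for Gys1 (117 CPM), and replicate 3 was low for Actg2 (17 CPM).

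The change over 8 h under DRF differed from that in the NRF intervals for named genes, by the interaction in limma on log2(CPM + 1). Against NRF ZT16 to ZT24 the differences were 4.45 for Nr1d2, 4.21 for Dbp, 3.96 for Per3, 3.73 for Fkbp5 and 3.60 for Per2, and -3.68 for Npas2, -3.14 for Arntl, -2.44 for Rasd1, -2.38 for Mmp9 and -2.30 for Adamts4. Against NRF ZT4 to ZT12 they were 2.87 for Arntl, 2.78 for Npas2, 2.63 for Cdkn1a, 1.87 for Ehd3 and 1.79 for Adra1a, and -3.77 for Crtac1, -3.68 for Acot4, -3.64 for Pmepa1, -3.48 for Usp2 and -3.38 for Dbp.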

How the results depend on the processing

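The counts of called genes stayed within 1.5 times their value under another pseudocount, median centring, quantile normalization, no intensity trend, voom on recovered reads and a filter at a mean of 2. They moved in other fits. On the deposited values as they stand, 531 genes rose and 574 fell between DRF ZT4 and ZT12, and 271 differed upward and 210 downward from NRF ZT16 to ZT24. With no filter on low values, 638 fell. With all 56 libraries in the fit, 653 rose and 532 fell, 291 differed upward from NRF ZT16 to ZT24 and 678 upward from NRF ZT4 to ZT12. With all 28 DRF libraries, 405 rose and 394 fell. The spread of DRF ZT8 replicate 1 enters these larger fits, and the cause was not tested.

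With each library left out in turn, 410 to 1335 genes rose and 398 to 1446 fell. The counts ran from 274 to 775 and from 180 to 688 against NRF ZT16 to ZT24, and from 737 to 1180 and from 945 to 1399 against NRF ZT4 to ZT12. The lowest came without DRF ZT4 replicate 3 in each case, and a fit with fewer mice has less power by construction. Without each ZT8 library, 69.5% to 83.2% of called genes were at or past the midpoint. Of the 109 genes, those that the naming rule gave and Ciart, 47 kept their side of the threshold in every alternative fit, left-out libraries included. None changed sign.

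Replicate numbers are not stated to pair the mice, and the main fits used no block. Deviations of same-numbered DRF libraries at ZT4 and ZT12 correlated at -0.269 to 0.439, above 0.1 in 2 of 4 pairs. So few pairs cannot decide whether the numbers hold a shared batch. With the replicate block, 1254 genes rose and 1112 fell, 456 and 313 differed from NRF ZT16 to ZT24, and 885 and 1104 from NRF ZT4 to ZT12. Depth was alike in all libraries, but genes of a few CPM, such as Ciart, Fdps and Fgf21, rest on few reads and are compressed by the pseudocount.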
